A study of Mus musculus with 30 samples.

Results

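The comparison set out here is that of H3K27ac, acetylation of lysine 27 on histone H3, between Crebbp-null lymphoproliferative disease (LPD) and wild-type B cells of the mouse. Its units are 40435 genomic regions, made by merging the peaks of 4 lists: LPD replicates 1 and 2 and B cell replicates 1 and 2. Gained regions held peaks of LPD replicates 1 and 2 but of neither B cell replicate. Lost regions held peaks of both B cell replicates but of no LPD replicate, and kept regions held peaks of all 4. These rules placed 25818 regions: 4628 gained, 6445 lost and 14745 kept. The remaining 14617 regions had another combination of lists.

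The LPD lists came from C57BL/6 mice of the genotype CBPfl/fl:Mx-Cre+, called Crebbp-/- in the labels, and the chromatin was from bulk splenocytes of diseased animals. The B cell lists came from C57BL/6 mice that carry the same floxed alleles without the Cre (CBPfl/fl:Mx-Cre-), and the cells were B220+ splenocytes sorted by flow cytometry. The Mx promoter that drives this Cre is induced by interferon and is active in many blood and other cells, so deletion is not limited to B cells. LPD and B cells thus differed in genotype, in disease and in sorting, and these cannot be told apart. Age and sex are not in the labels, nor is it said whether the replicates came from separate animals, and any spread between them may be technical.

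CBP, the product of Crebbp, and its relative p300 transfer acetyl groups to histone tails, and H3K27ac is the mark most often used to find active enhancers and promoters. Acetylated regions at a gene start accompany transcription of most expressed genes, and those between and inside genes vary more between cell types. In mature B cells, factors such as EBF1, PAX5, FOXP1 and ETS1 bind many of these distal regions. CREBBP is among the genes most often mutated in human B cell lymphoma.

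A peak list gives positions and no height, so length in bases is the only quantity per region here, and read depth is unknown. The LPD lists held 31924 and 27581 peaks that covered 26.2 and 18.2 Mb, and the B cell lists 30523 and 30198 peaks that covered 27.1 and 26.4 Mb. LPD replicate 2 therefore stood apart by its shorter covered length, with 906 peaks of at least 2 kb, where the other 3 lists had 2185 to 2577. Of the defining markers of other cell types, 13 of 14 myeloid, 12 of 14 T cell and 7 of 8 NK cell genes had no peak in any of the 4 lists. All 13 B cell markers had a region, and 12 of them had a peak in LPD replicate 2. They summed to 110 and 71.7 kb in the LPD lists, against 140 and 133 kb in the B cell lists. The 14 T cell markers summed to 1.71 and 1.15 kb in the LPD lists, against 7.87 and 7.13 kb in the B cell lists. The 8 erythroid markers held 8.0 and 4.06 kb of peaks in the LPD lists, against 0.797 and 0.742 kb in the B cell lists, with Gata1 and Epor among those at 0 in all 4. Of 6 dendritic cell markers 3 were at 0 in all lists, Itgax, Clec9a and Siglech, and the 6 summed to 8.19 and 6.17 kb in the LPD lists, against 5.75 and 5.59 kb in the B cell lists. Of 8 stromal and endothelial markers 5 were at 0, Kdr and Tek among them, and the sums were 18.2 and 11.4 kb in LPD, against 10.8 and 12.4 kb in B cells. The 6 megakaryocyte markers, with Pf4 and Gp1ba among those at 0, summed to 1.07 and 0.252 kb in LPD, against 11.9 and 11.6 kb in B cells. The B cell sums came from 1 member, the integrin gene Itgb3. In LPD, 3 members had a peak in replicate 1 and 1 in replicate 2. The part of other cells of the spleen in the results was not tested, and in bulk tissue more cells with a mark and more of the mark per cell cannot be told apart.

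Promoters of a few starts described below are shown first, as examples of a gained, a lost and a shortened start, in 300-base windows from 250 bases before to 50 bases after a RefSeq start (build GRCm38.p6, the same as mm10), written 5′ to 3′ on the gene's strand. In the first 4, the starts of genes that drive cell division and that lay within 1 kb of a gained region, capitals mark CCAAT, the core bound by NF-Y, and TTTGAA, the core of the cell cycle homology region (CHR), each on either strand.
Mki67 (chr7:135716330-135716629, minus strand): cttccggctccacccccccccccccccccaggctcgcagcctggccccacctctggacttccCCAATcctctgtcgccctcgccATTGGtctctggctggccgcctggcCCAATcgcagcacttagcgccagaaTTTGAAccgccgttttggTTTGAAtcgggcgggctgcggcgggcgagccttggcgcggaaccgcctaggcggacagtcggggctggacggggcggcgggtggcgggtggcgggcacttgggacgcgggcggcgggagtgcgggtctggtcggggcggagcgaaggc
Ccnb2 (chr9:70421505-70421804, minus strand): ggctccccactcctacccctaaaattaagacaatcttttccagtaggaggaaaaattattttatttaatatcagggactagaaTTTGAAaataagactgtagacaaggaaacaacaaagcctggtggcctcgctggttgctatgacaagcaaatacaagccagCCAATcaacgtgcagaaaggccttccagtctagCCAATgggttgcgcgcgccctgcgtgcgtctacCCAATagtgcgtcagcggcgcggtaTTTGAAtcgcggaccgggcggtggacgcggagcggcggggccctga
Cdk1 (chr10:69352863-69353162, minus strand): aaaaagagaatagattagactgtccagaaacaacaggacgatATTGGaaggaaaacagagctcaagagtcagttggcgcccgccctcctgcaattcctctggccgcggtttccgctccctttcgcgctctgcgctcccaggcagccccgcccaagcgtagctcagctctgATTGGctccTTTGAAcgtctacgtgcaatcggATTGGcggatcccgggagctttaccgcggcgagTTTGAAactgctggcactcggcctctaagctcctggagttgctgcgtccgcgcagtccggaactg
Plk1 (chr7:122159185-122159484, plus strand): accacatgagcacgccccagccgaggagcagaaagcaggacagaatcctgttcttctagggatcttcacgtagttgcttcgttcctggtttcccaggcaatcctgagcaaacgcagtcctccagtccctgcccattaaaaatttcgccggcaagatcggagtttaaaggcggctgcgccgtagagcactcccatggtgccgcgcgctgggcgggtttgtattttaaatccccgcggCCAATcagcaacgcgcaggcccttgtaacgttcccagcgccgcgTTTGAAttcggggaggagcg
Of 20 cell division genes with a promoter entry (E2f2 has more than 1, and any counts), 17 held CCAAT, 11 held TTTGAA and 11 held both in the same gene (55.0%), while 38.2, 16.0 and 6.37% of 21237 promoters did. Of the 6 among them whose start lay in a gained region, 5 held both. Over all 356 promoters of gained starts with no kept region in the window, 11.2% held TTTGAA, a share near that of kept ones, 11.4%. The next pair are starts in lost regions, of the chromatin organiser gene Satb1 and of the ADP-ribosyltransferase family gene Parp8, marked in the same way.
Satb1 (chr17:51812005-51812304, minus strand): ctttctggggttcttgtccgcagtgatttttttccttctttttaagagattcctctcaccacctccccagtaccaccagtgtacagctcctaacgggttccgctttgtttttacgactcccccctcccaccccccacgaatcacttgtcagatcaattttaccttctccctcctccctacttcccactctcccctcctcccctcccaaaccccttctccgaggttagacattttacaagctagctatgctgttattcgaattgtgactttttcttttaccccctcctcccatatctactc
Parp8 (chr13:117025482-117025781, minus strand): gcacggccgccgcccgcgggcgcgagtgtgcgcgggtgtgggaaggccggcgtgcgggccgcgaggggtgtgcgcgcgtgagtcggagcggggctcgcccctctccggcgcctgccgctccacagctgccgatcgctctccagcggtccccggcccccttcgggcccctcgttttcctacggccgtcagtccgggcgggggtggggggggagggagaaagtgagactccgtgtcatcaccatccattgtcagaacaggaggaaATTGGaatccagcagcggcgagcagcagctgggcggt
The last is the start of Ccr6, which lay in a kept region that was far shorter in LPD. Capitals mark the octamer ATTTGCAT, the site of OCT factors, found on either strand in 1.66% of promoters.
Ccr6 (chr17:8235793-8236092, plus strand): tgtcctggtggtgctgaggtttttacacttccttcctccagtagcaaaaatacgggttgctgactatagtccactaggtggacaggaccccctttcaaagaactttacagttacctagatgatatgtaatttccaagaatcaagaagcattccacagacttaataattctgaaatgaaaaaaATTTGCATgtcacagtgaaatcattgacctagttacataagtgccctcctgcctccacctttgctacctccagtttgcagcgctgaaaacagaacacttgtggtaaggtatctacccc

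Gained and lost regions were narrower than kept ones and lay mostly away from gene starts. Their median widths were 590.5 bp for gained, 535 bp for lost and 1222 bp for kept regions. A start lay within 1 kb of 10.4% of gained, 9.81% of lost and 52.4% of kept regions, and 61.6, 52.9 and 31.2% lay elsewhere in a gene. Gained regions were thus 11.4%, lost regions 15.9% and kept regions 36.5% of all regions. The counts changed when a list was left out, which also loosens the rule, since presence or absence in a single list of that group is then enough. Without LPD replicate 2 the gained regions numbered 10315, and without B cell replicate 2 the lost regions numbered 10023. Regions present in LPD replicate 1 alone numbered 5531, and those in LPD replicate 2 alone 596. With peaks up to 1 kb apart merged, 2962 regions were gained and 3130 lost. Gained regions had a kept region within 5 kb in 32.4% of cases and lost regions in 40.6%.

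**Figure D1:**
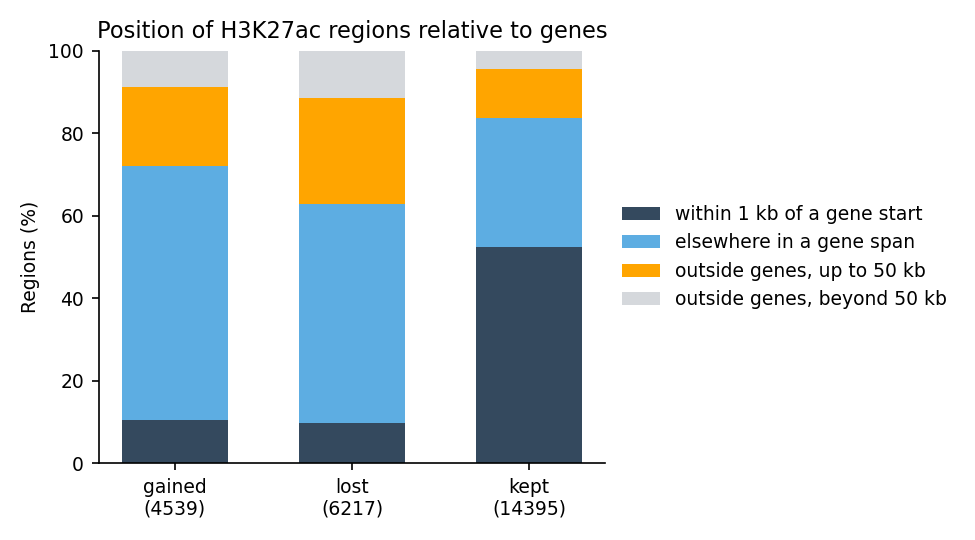
Position of gained, lost and kept H3K27ac regions (columns, number of regions on chromosomes with start entries below each) as a percentage of the class (vertical axis); colours stand for distance from gene starts and gene spans. Regions within 1 kb of a start make up 52.4% of kept regions but 10.4% of gained and 9.81% of lost ones.

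New H3K27ac at gene starts in LPD was longest at Adm, Mki67, 1810046K07Rik, Nrp1 and Wipf3. Of 17491 genes with a start entry, 451 (2.58%) had a start within 1 kb of a gained region, and 164 of these had a kept region in the same window as well, so that 287 had none. Without LPD replicate 2, 931 genes had a gained start. Adm, which encodes the vasodilator peptide adrenomedullin, had a region of 6752 and 5592 bp in the LPD lists (chr7:110625094-110631845), against none in either B cell list. At Mki67, which encodes the Ki-67 protein that coats mitotic chromosomes, the gained region covered 3583 and 2889 bp in the LPD lists (chr7:135712874-135716456) and had no peak in the B cell lists. The median width of a gained region is given above, and both of these starts lay in regions several times wider.

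The neuropilin genes Nrp1 and Nrp2, whose products are co-receptors for semaphorins and VEGF, both had gained starts. Nrp1 had 3101 and 2398 bp in the LPD lists (chr8:128357179-128360279), and Nrp2 had 2849 and 1843 bp there (chr1:62702842-62705702), against none in the B cell lists at either. Wipf3, of a family that binds the actin regulator WASP, had 2750 and 2461 bp in LPD, and Rap1gap2, a GTPase-activating protein for RAP1, had 2562 and 2108 bp. Cd80, the costimulatory ligand that B cells show to T cells, had 2570 and 1891 bp in LPD at its start. Tnip1, whose product works with A20 to restrain NF-kB, had 2289 and 2124 bp at its start, and the potassium channel subunit gene Kcng3 had 2175 and 1842 bp. None of these starts had a peak in a B cell list. All 10 of the longest gained starts overlapped H3K18ac and H3K56ac peaks in both LPD lists of each mark and in no B cell list. These starts were chosen by H3K27ac in the same groups, so the overlap is no independent support. Some genes have more than 1 start entry: 21 genes, Zeb2, Wipf1, Celf2 and Tef among them, had a start in a gained region while another of their starts lay in a kept region.

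**Figure D2:**
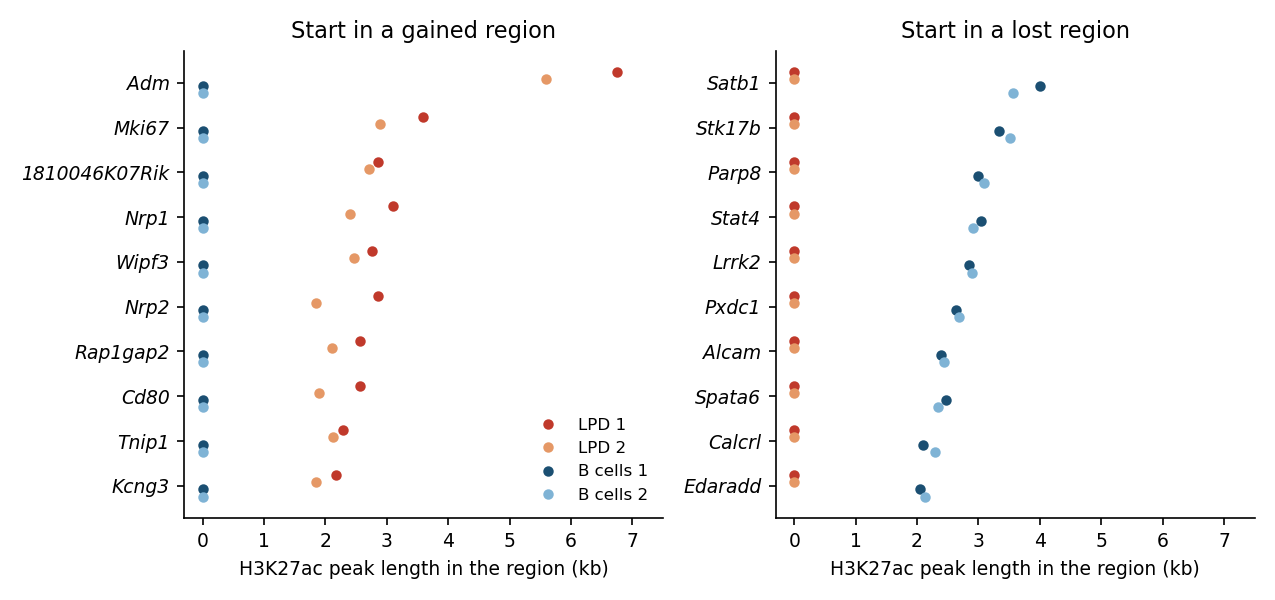
H3K27ac peak length (horizontal axis, kb) in the called region at the 10 longest gained and the 10 longest lost gene starts, with 1 point per list: LPD 1 and 2, then B cells 1 and 2. The group without peaks is at 0 by the rule, and the other values run up to 6752 bp at Adm and 4001 bp at Satb1.

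Starts that lost H3K27ac in LPD were led by Satb1, Stk17b, Parp8, Stat4 and Lrrk2. In all, 570 genes (3.26%) had a start within 1 kb of a lost region and 7180 (41.0%) of a kept one. Of the 570, 271 had a kept region in the window too, so that 299 had none. Without LPD replicate 1, 1097 genes had a lost start. At Satb1 the lost region covered 4001 and 3555 bp in the B cell lists (chr17:51811263-51815263), with no peak in LPD. Stk17b, a kinase gene of lymphocytes, had 3332 and 3508 bp in B cells but also a kept region beside it. Parp8 had 2991 and 3089 bp and Stat4, the transcription factor of IL-12 signalling, 3040 and 2908 bp in the B cell lists (chr1:52007246-52010285), against none in the LPD lists. The loss at Stat4 reached past its start, with 7 lost regions over the gene.

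Lrrk2, a large kinase gene, had 2844 and 2896 bp in the B cell lists at its start. Alcam, the adhesion molecule CD166, had 2382 and 2435 bp, and Edaradd, an adaptor of the ectodysplasin receptor, 2050 and 2126 bp. Calcrl, whose product forms the receptor for adrenomedullin, had 2092 and 2293 bp in B cells and none in LPD, while its ligand gene Adm had the longest gained start. Of the 10 longest lost starts, likewise chosen by H3K27ac in these groups, 8 overlapped H3K18ac and 9 overlapped H3K56ac in both B cell lists. None overlapped either mark in both LPD lists. Ldb1, Pabpc4, Pde4a and Zbtb7b, 4 genes named after their values were seen, had both a gained and a lost region among their start windows. At Pabpc4 both lay at the same start, while at Ldb1, Pde4a and Zbtb7b they lay at different starts of the gene. A kept region shared the window of both at Ldb1 and of the lost one at Zbtb7b.

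Kept regions were shorter in LPD more often than longer. They covered 19.3 and 15.2 Mb in the LPD lists, against 20.1 and 19.8 Mb in the B cell lists, a log2 ratio of -0.22 (exact two-sided permutation test, p = 0.33, the smallest that 2 lists against 2 can give). The LPD values lay below both B cell values, and LPD replicate 1 was close to them. The log2 ratio was -0.43 without LPD replicate 1 and -0.11 without LPD replicate 2. In 41.6% of kept regions both LPD lists covered less than both B cell lists, and in 19.3% both covered more. Away from starts the shortening was commoner, at 48.6% of regions, than at starts, at 35.0%. Median lengths per kept region were 995 and 741 bp in LPD and 1003 and 984 bp in B cells.

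Among starts in kept regions, Gpr55, a receptor for lysophospholipids, lengthened most in LPD. Its region held 4958 and 4897 bp in the LPD lists, against 430 and 348 bp in the B cell lists (log2 ratio 3.66). The neighbouring transporter genes Abca3 and Abca17 share a region with 4494 and 4233 bp in the LPD lists, against 665 and 536 bp in the B cell lists. Lyst, the lysosomal trafficking regulator, had 5772 and 3820 bp in the LPD lists, against 683 and 700 bp in the B cell lists, and Irak2, a kinase of interleukin-1 and Toll-like receptor signalling, had 3695 and 3578 bp in the LPD lists, against 600 and 820 bp in the B cell lists. In each of these both LPD lists lay above both B cell lists. Fcrl5, an Fc receptor-like gene of B cells, had 1744 and 1407 bp in the LPD lists, against 231 and 239 bp in the B cell lists, and the mitotic histone kinase gene Haspin 1389 and 1294 bp in the LPD lists, against 210 and 210 bp in the B cell lists. Zfp827, Gm14137 and the legumain gene Lgmn completed this group, with log2 ratios of 2.44, 2.40 and 2.33.

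The largest shortening at a start was at Ccr6, the receptor for CCL20 that guides B cells to mucosal tissue. Its region spanned a broad domain in B cells and held 2096 and 280 bp in the LPD lists, against 12844 and 12906 bp in the B cell lists (log2 ratio -3.44). Cnr2, the cannabinoid receptor of B cells, had 938 and 451 bp in the LPD lists, against 3783 and 3801 bp in the B cell lists, and Cd72, an inhibitory co-receptor of the B cell receptor, had 1125 and 469 bp in the LPD lists, against 4987 and 4520 bp in the B cell lists. Pde4b, which degrades cyclic AMP, had 307 and 220 bp in the LPD lists, against 1866 and 1873 bp in the B cell lists at the shortened start. Klhl6, a gene of germinal centre B cells, had 478 and 395 bp in the LPD lists, against 2651 and 2469 bp in the B cell lists. LPD replicate 2 lay below replicate 1 at every start named here as shortened, and both lay below the B cell lists. Kcnq5, Cnn3, Phc1 and the neighbours Bco2 and Il18, which share a region, had log2 ratios between -3.37 and -2.42.

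Over whole gene spans widened by 1 kb, 11471 of 21883 protein-coding genes had a region, 17.2% had a gained region and 18.7% a lost one. Both LPD lists lay above both B cell lists in 23.0% of these genes and below in 37.3%, with a median log2 ratio of -0.08. Genes with both kinds of region, 340 in all, had a median of 11 regions, and those with neither had 1. Regions per gene averaged 2.96 over all genes. The counts of list members given below are to be read beside these shares of all genes, 17.2% gained and 18.7% lost. Of 50 gene lists, 17 had more members with a gained than with a lost region, 25 had more with a lost one and 8 had as many of each. Without LPD replicate 2, 30 of the 50 had more gained members. A gained region then needs a peak in LPD replicate 1 alone, and the part of this looser rule in the change was not tested.

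**Figure D3:**
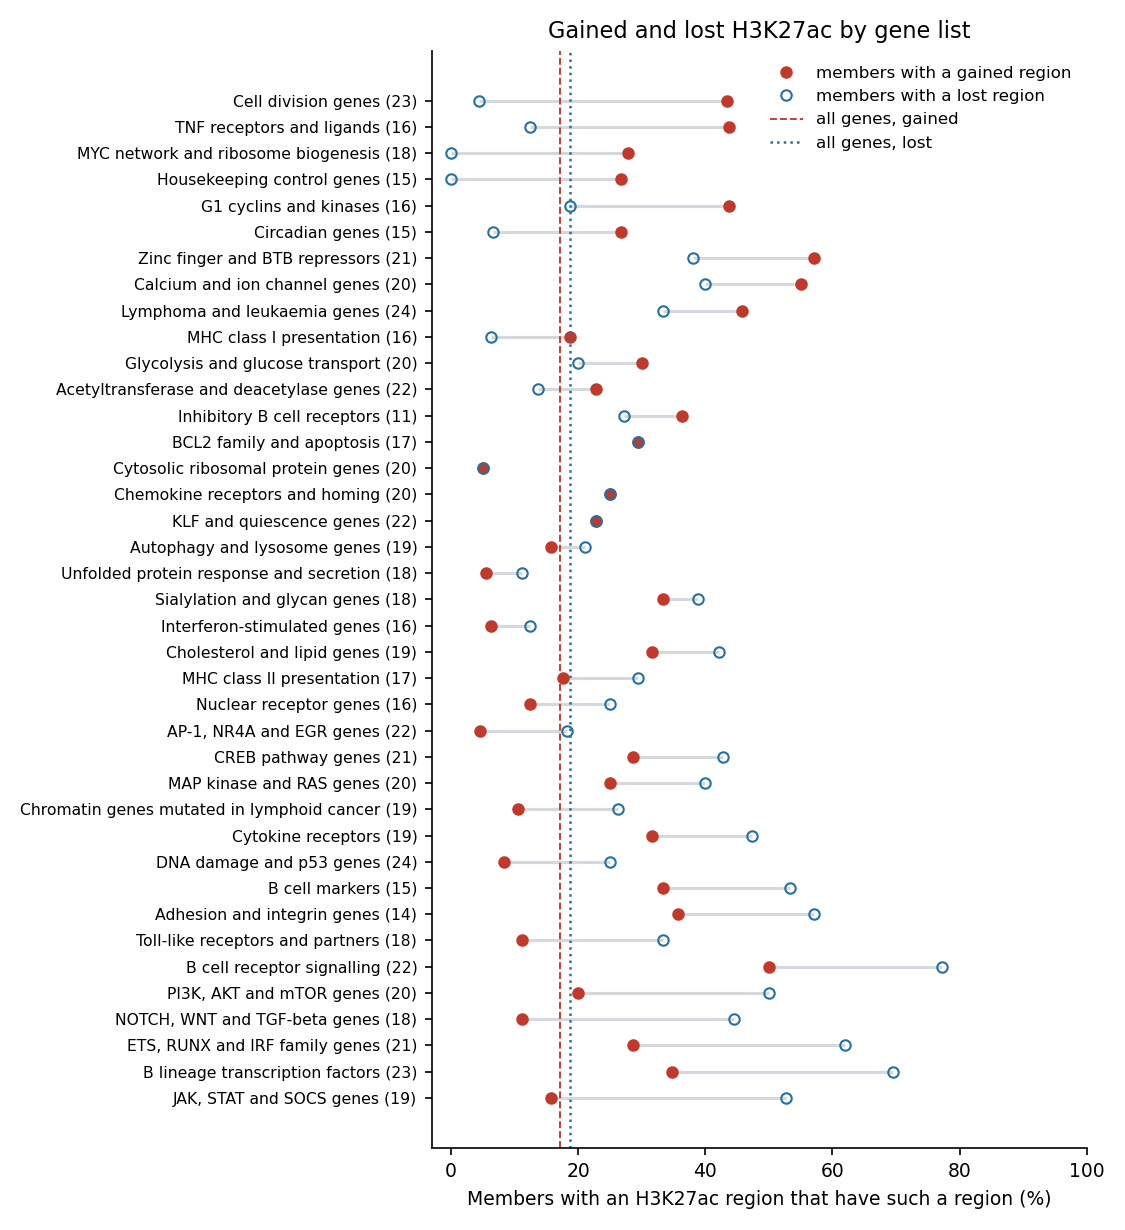
Percentage of members with an H3K27ac region that have a gained (filled) or a lost (open) region, for gene lists with at least 10 such members (their number in parentheses); the vertical lines are the same percentages over all genes, 17.2% gained and 18.7% lost. Cell division genes stand at 43.5% gained and 4.35% lost, and JAK, STAT and SOCS genes at 15.8% gained and 52.6% lost.

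Among cell division genes, gained regions outnumbered lost ones. Of 23 members with a region, 10 had a gained region and 1 a lost one, with 2.35 regions per gene and a median log2 ratio of 0.67. When each list was left out in turn, the gained members numbered 10 to 13 and the lost ones 1, and with peaks of at least 500 bp they numbered 8 and 0. At the start, 6 of the 20 members with a start entry were gained: Mki67, the mitotic cyclin gene Ccnb2, its kinase Cdk1, the mitotic kinase Plk1, the anaphase activator Cdc20 and the survivin gene Birc5. Cdc20 and Birc5 had a kept region in the same window, and the other 4 did not. Mki67 had 4.29 and 2.89 kb in the LPD lists, against 0 and 0.378 kb in the B cell lists over its span. Ccnb2 had 1.40 and 0.825 kb in the LPD lists, against none in either B cell list, and Aurkb, the kinase of the chromosomal passenger complex, had 1.78 and 1.0 kb in the LPD lists, against none in either B cell list. The spindle motor gene Kif11 had 4.56 and 4.06 kb in the LPD lists, against 0.943 and 0.925 kb in the B cell lists. Bub1b, of the spindle checkpoint, was the member with a lost region and had 1.80 and 0.663 kb in the LPD lists, against 1.79 and 1.89 kb in the B cell lists. LPD replicate 1 lay within the B cell range there and replicate 2 below it.

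In the MYC network list gained members outnumbered lost ones, and in the list of genes of entry into the cell cycle their order depended on the processing. Of 18 members of the MYC network and ribosome biogenesis list, 5 had a gained and none a lost region, against 17.2 and 18.7% of all genes. The gained count was 8 without LPD replicate 2, and 1 when only peaks of at least 500 bp were used. Without B cell replicate 2, 2 members had a lost region. The housekeeping control list had a like pattern, with 4 gained and none lost of 15 members. Without chromosomes 15 and 17, 4 MYC network and 2 housekeeping members were gained. Myc had 5.29 and 4.64 kb in the LPD lists, against 3.57 and 2.82 kb in the B cell lists, and the MAX partners Mxi1 and Mxd3, which oppose MYC, had gained starts. Mxi1 had 5.46 and 3.93 kb in the LPD lists, against 2.31 and 2.63 kb in the B cell lists, and Mxd3 1.70 and 0.828 kb in the LPD lists, against 0 and 0.459 kb in the B cell lists. Among 16 G1 cyclin and kinase genes, 7 had a gained and 3 a lost region, and the lost share, 18.8%, was near that of all genes. Without LPD replicate 1 the counts were 7 and 6, without LPD replicate 2 they were 11 and 3, without B cell replicate 2 they were 8 and 5, and with peaks of at least 500 bp 4 members were gained and 4 lost. The cyclin D2 gene Ccnd2 had 5.0 and 4.19 kb in the LPD lists, against 1.76 and 1.35 kb in the B cell lists, and the phosphatase gene Cdc25a, which frees cyclin-dependent kinases for S phase entry, 2.96 and 1.87 kb in the LPD lists, against 0.665 and 0.570 kb in the B cell lists. Cdk6, a kinase partner of the D cyclins, went the other way, with 5 lost regions and 1.67 and 0.495 kb in the LPD lists, against 8.05 and 7.52 kb in the B cell lists.

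TNF receptor genes and ligands had 7 gained and 2 lost members of 16 (43.8 and 12.5%, against 17.2 and 18.7% of all genes). Tnfrsf13b, the TACI receptor for BAFF and APRIL, had 8.29 and 6.45 kb in the LPD lists, against 3.24 and 3.39 kb in the B cell lists. Traf3, a brake on non-canonical NF-kB, had 5.67 and 4.41 kb in the LPD lists, against 2.99 and 3.12 kb in the B cell lists, and the lymphotoxin gene Lta had 4.10 and 2.88 kb in the LPD lists, against 1.77 and 1.64 kb in the B cell lists. Traf5 and Tnfrsf1b were the members with lost regions, and Traf5 had 5.04 and 4.20 kb in the LPD lists, against 11.3 and 9.78 kb in the B cell lists. The lost members numbered 5 without B cell replicate 1, and with peaks of at least 500 bp 2 members were gained and 2 lost. Inhibitory receptors of B cells had 4 gained and 3 lost members of 11, an order that turned with an overlap of 50% of the region. Cd22 had 7.08 and 6.51 kb in the LPD lists, against 2.34 and 1.89 kb in the B cell lists, and Cd274, the PD-L1 gene, had 6 gained regions, with 19.3 and 16.2 kb in the LPD lists, against 11.5 and 11.3 kb in the B cell lists. Fcrl5 had 9.12 and 6.24 kb in the LPD lists, against 1.84 and 1.98 kb in the B cell lists, while its relative Fcrl1 had 5 lost regions, with 7.63 and 5.12 kb in the LPD lists, against 13.01 and 12.9 kb in the B cell lists. Btla, a further inhibitory receptor, had 6.86 and 4.21 kb in the LPD lists, against 11.8 and 12.3 kb in the B cell lists.

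Zinc finger and BTB repressor genes had 12 gained and 8 lost members of 21, with 11.5 regions per gene. Their shares were 57.1 and 38.1%, against 17.2 and 18.7% of all genes. Without B cell replicate 1, 12 members were gained and 11 lost, and without LPD replicate 2, 15 were gained and 8 lost. Zeb2 had 9 gained regions, with 19.8 and 12.2 kb in the LPD lists, against 3.17 and 3.21 kb in the B cell lists, and Zbtb38 had 9.96 and 7.98 kb in the LPD lists, against 1.84 and 2.16 kb in the B cell lists. The lost members included Gfi1, a repressor that shapes lymphoid and myeloid fates, with 0.256 and 0 kb in the LPD lists, against 5.85 and 5.71 kb in the B cell lists, and Hivep2, with 12.5 and 9.99 kb in the LPD lists, against 30.01 and 29.95 kb in the B cell lists. Glycolysis and glucose transport genes had 6 gained and 4 lost members of 20, with a median log2 ratio of 0.35. The gained share was 30%, against 17.2% of all genes, and the lost share, 20%, was near the 18.7% of all genes. With peaks of at least 500 bp 5 members were gained and 5 lost. With either B cell list left out 6 were gained and 5 lost, and with either LPD list left out 8 and 4. Hif1a, the transcription factor of low oxygen, had 6.12 and 4.91 kb in the LPD lists, against 1.36 and 1.42 kb in the B cell lists, and the hexokinase gene Hk1 4.07 and 2.87 kb in the LPD lists, against 1.38 and 1.49 kb in the B cell lists. Tpi1, an enzyme of glycolysis, had 1.09 and 0.882 kb in the LPD lists, against none in either B cell list over its span and a gained start. Slc16a1, a lactate carrier, had 2.0 and 1.29 kb in the LPD lists, against 4.05 and 4.05 kb in the B cell lists.

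JAK, STAT and SOCS genes, which carry cytokine signals, had more lost than gained members. Of 19 members with a region, 10 had a lost and 3 a gained region, with 4.84 regions per gene, a median log2 ratio of -0.33 and 11 members in which both LPD lists were below both B cell lists. Jak1, the kinase shared by many cytokine receptors, had 9 lost regions, with 4.31 and 2.19 kb in the LPD lists, against 15.2 and 16.2 kb in the B cell lists. Stat4 had no peak in either LPD list, against 9.83 and 9.78 kb in the B cell lists. The feedback inhibitor Socs2 had 1.02 and 0.916 kb in the LPD lists, against 2.14 and 1.97 kb in the B cell lists, while the kinase gene Tyk2 had 2 gained regions, with 1.54 and 0.737 kb in the LPD lists, against 0.284 and 0.294 kb in the B cell lists. The lost members numbered 10 to 12 when a list was left out and the gained ones 3 to 4, and with peaks of at least 500 bp 5 were lost and none gained. Among cytokine receptors, 9 of 19 had a lost and 6 a gained region (47.4 and 31.6%, against 18.7 and 17.2% of all genes). Il4ra had 5.86 and 4.66 kb in the LPD lists, against 10.5 and 10.6 kb in the B cell lists and Il21r 7.28 and 6.07 kb in the LPD lists, against 14.7 and 15.6 kb in the B cell lists, whereas Il6ra had 12.9 and 7.99 kb in the LPD lists, against 4.40 and 4.37 kb in the B cell lists and Il9r 4.61 and 3.07 kb in the LPD lists, against 0.432 and 0.734 kb in the B cell lists.

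B cell receptor signalling genes were rich in regions, with 13.5 per gene, and had 17 lost and 11 gained members of 22. With peaks of at least 500 bp 13 were lost and 1 gained, and without LPD replicate 2, 17 were lost and 15 gained. Plcg2, the phospholipase that turns receptor signals into calcium release, had 10 lost regions, with 1.06 and 0.880 kb in the LPD lists, against 12.4 and 12.99 kb in the B cell lists. Rasgrp3, which links that step to RAS, had 4.04 and 2.13 kb in the LPD lists, against 15.1 and 16.2 kb in the B cell lists, and the phosphoinositide 3-kinase subunit gene Pik3cd had 7.51 and 6.42 kb in the LPD lists, against 14.4 and 13.3 kb in the B cell lists. Both LPD lists lay below both B cell lists in 13 of the 22. Prkcb had 6 gained regions and 20.4 and 11.99 kb in the LPD lists, against 27.01 and 26.4 kb in the B cell lists. Its LPD lists lay below the B cell lists all the same. Among B cell markers, the adaptor gene Blnk had 5.94 and 3.85 kb in the LPD lists, against 12.7 and 11.1 kb in the B cell lists. A second adaptor gene, Bank1, had 11.99 and 5.45 kb in the LPD lists, against 21.7 and 19.9 kb in the B cell lists. Pax5 had 22.4 and 13.6 kb in the LPD lists, against 20.5 and 20.5 kb in the B cell lists, with overlapping groups.

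Transcription factor genes of the B lineage had 16 lost and 8 gained members of 23, with 22.7 regions per gene. With peaks of at least 500 bp 12 members were lost and 10 gained, and without LPD replicate 2 there were 16 and 12. Ebf1, which with Pax5 sets B cell identity, had 15 lost regions, with 26.1 and 17.1 kb in the LPD lists, against 49.3 and 47.4 kb in the B cell lists. Zfp318, which controls the choice between IgM and IgD, had 1.43 and 1.42 kb in the LPD lists, against 5.87 and 5.75 kb in the B cell lists. Ikzf1, the Ikaros gene, had 6 gained regions, with 50.1 and 33.7 kb in the LPD lists, against 26.7 and 24.8 kb in the B cell lists, and Pou2f2, the OCT2 gene, 13.8 and 9.18 kb in the LPD lists, against 4.85 and 4.30 kb in the B cell lists. In the ETS, RUNX and IRF families, with 9.14 regions per gene, 13 of 21 members had a lost and 6 a gained region. Ets1 had 14 lost regions, with 29.4 and 18.2 kb in the LPD lists, against 56.3 and 58.1 kb in the B cell lists, and Erg had no peak in either LPD list, against 1.93 and 1.69 kb in the B cell lists. With peaks of at least 500 bp 10 were lost and 2 gained. The gained members numbered 12 without LPD replicate 2, which brought them near the 13 with a lost region.

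NOTCH, WNT, TGF-beta and PI3K genes had more lost than gained members. Of 18 NOTCH, WNT and TGF-beta genes, with 6.39 regions per gene, 8 had a lost and 2 a gained region, and the gained ones numbered 4 without LPD replicate 1 and 5 without LPD replicate 2. Smad7, the feedback inhibitor of TGF-beta signalling, had 1.95 and 1.48 kb in the LPD lists, against 10.2 and 10.1 kb in the B cell lists, and Tcf7l2, a WNT effector, had no peak in either LPD list, against 3.13 and 3.18 kb in the B cell lists. Rbpj, the DNA-binding partner of NOTCH, had 2 gained regions, with 5.97 and 4.0 kb in the LPD lists, against 2.76 and 2.43 kb in the B cell lists. In the PI3K, AKT and mTOR list, 10 of 20 members had a lost and 4 a gained region, and the gained ones numbered 10 without LPD replicate 2. The lost share was 50%, against 18.7% of all genes, and the gained share, 20%, was near the 17.2% of all genes. The kinase gene Sgk1 had no peak in either LPD list, against 2.66 and 2.25 kb in the B cell lists. Among genes of cell death, the pro-apoptotic Bcl2l11 had no peak in either LPD list, against 2.48 and 2.15 kb in the B cell lists, while the survival gene Mcl1 had 6.62 and 5.33 kb in the LPD lists, against 3.20 and 3.36 kb in the B cell lists. Bcl2l1, a further survival gene, had 3.68 and 1.71 kb in the LPD lists, against 1.27 and 1.32 kb in the B cell lists. Of the 17 members of that list 5 had a gained and 5 a lost region.

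Genes of adhesion, homing and cyclic AMP signalling moved in both directions. Itga9 had no peak in either LPD list, against 8.21 and 7.45 kb in the B cell lists, and Itgb3 0.624 and 0.252 kb in the LPD lists, against 11.9 and 11.6 kb in the B cell lists. Ackr3 and Ccr9, receptors for chemokines, went the other way: Ackr3 had 1.94 and 1.23 kb in the LPD lists, against none in either B cell list, and Ccr9 1.45 and 0.992 kb in the LPD lists, against none in either B cell list. Of 20 homing genes 5 had a gained and 5 a lost region (25% each, against 17.2 and 18.7% of all genes). There were 8 gained without LPD replicate 2 and 8 lost without B cell replicate 1. Of 14 adhesion genes, with 8.43 regions per gene, 5 had a gained and 8 a lost region, an order that turned without LPD replicate 2 (9 and 8), with an overlap of 50% of the region (8 and 7) and with peaks of at least 500 bp (6 and 5). In the CREB pathway, 9 of 21 members had a lost and 6 a gained region, and with peaks of at least 500 bp 8 were lost and 1 gained. Without LPD replicate 2, 9 members were lost and 9 gained. The cyclic AMP phosphodiesterase gene Pde4d had 0.945 and 0 kb in the LPD lists, against 9.60 and 8.43 kb in the B cell lists. Pde3b, of the same enzyme class, had 1.08 and 0.525 kb in the LPD lists, against 8.64 and 8.63 kb in the B cell lists. Sik1, a kinase induced by CREB, had 12.8 and 11.3 kb in the LPD lists, against 3.77 and 3.96 kb in the B cell lists. Among antigen presentation genes, the immunoproteasome gene Psmb9 had 3.90 and 4.0 kb in the LPD lists, against 1.78 and 1.73 kb in the B cell lists, and Ciita, the switch of MHC class II, 8.03 and 5.01 kb in the LPD lists, against 9.85 and 9.88 kb in the B cell lists.

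Some long genes gained and lost regions at once. Foxp1 held the most of both, with 16 gained and 22 lost regions among 124. Its peaks covered 106 and 71.3 kb in the LPD lists, against 111 and 107 kb in the B cell lists. Prkce had 8 gained and 6 lost regions with 42.2 and 35.8 kb in the LPD lists, against 32.5 and 31.99 kb in the B cell lists, and Mical3 had 12 gained and 4 lost with 17.6 and 13.9 kb in the LPD lists, against 7.07 and 6.43 kb in the B cell lists. Snx29, with 5 gained and 6 lost regions, had 8.97 and 5.73 kb in the LPD lists, against 16.5 and 14.97 kb in the B cell lists, and Rad51b, with 4 and 5, 24.6 and 13.3 kb in the LPD lists, against 32.1 and 32.1 kb in the B cell lists. In Cacna1e, Rapgef1, Celf2 and Asap1 the ranges of the groups overlapped, although each had 4 to 6 gained and 4 to 7 lost regions. Foxn3 had 9 gained and 3 lost regions and 33.7 and 25.2 kb in the LPD lists, against 19.6 and 18.2 kb in the B cell lists.

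Called regions also came in runs of neighbours with no other region between them. Runs of at least 2 held 49.5% of gained and 56.1% of lost regions, and 43 gained and 92 lost runs had at least 5. Shares for the other regions are not given, so runs are not shown to be particular to called regions. Neighbours up to 1 kb apart count singly here, and with such peaks merged 2962 regions were gained and 3130 lost. The longest gained run had 11 regions over 223 kb at Grk3 and Myo18b, with 15.3 and 11.0 kb of peaks in the LPD lists. Wipf3 had a run of 9 with 12.7 and 11.2 kb in LPD. The longest lost run had 13 regions over 119 kb at Tcf7l2, with 6.24 and 6.07 kb in the B cell lists. The Armc9 and B3gnt7 run, of 11 regions, had 16.7 and 16.2 kb in B cells. Further lost runs lay at the RAS family gene Rras2, at Dclk2 and Cd1d1, and at Stat4.

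Farther than 50 kb from any start lay 871 gained and 1370 lost regions. The widest gained ones were inside Rftn1 and Foxp1 and at the immunoglobulin heavy chain locus, where the region chr12:113362054-113367159 had 5106 and 5032 bp in the LPD lists, against none in the B cell lists. It lay within the RefSeq record for Igh and 122 kb from the nearest protein-coding start. Lost ones lay 457 and 481 kb from the nearest start, that of the B cell factor gene Mef2c, with 4825 and 4617 bp in the B cell lists for the wider region and none in LPD. Others were nearest to Foxo1, at 303 kb, and to Bach2, at 195 kb, both regulators of B cell maturation. All 10 widest far gained regions had both other marks in both LPD lists of each and in no B cell list. The 10 widest far lost regions had H3K18ac in both B cell lists, and 3 of them kept it in both LPD lists. Both sets were chosen by H3K27ac in the same groups, so these overlaps are no independent support.

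H3K18ac and H3K56ac, read from lists that did not choose the regions, were present at most gained regions in LPD and at few in B cells. H3K18ac overlapped 89.7 and 78.4% of gained regions in the LPD lists, against 3.35 and 4.0% in the B cell lists. H3K56ac overlapped 67.3 and 70.1% in LPD, against 2.87 and 2.01% in B cells. The LPD lists of these marks were also longer over the whole genome, with 39529 and 35247 H3K18ac peaks in LPD, against 22485 and 23456 in B cells, and 28222 and 28934 H3K56ac peaks, against 20392 and 18763. The part of list length in these shares was not tested. The groups did not overlap in either mark (exact permutation test, p = 0.33, the smallest possible). Since the regions were chosen to differ between these groups in H3K27ac, this p is no independent support. At lost regions the shares were lower: H3K18ac overlapped 25.1 and 14.8% of them in LPD, against 34.7 and 36.6% in B cells, and H3K56ac 4.67 and 5.34%, against 21.5 and 18.3%. No list of either mark had a peak at 44.4% of lost regions, where 6.05% of gained regions had none. At kept regions the LPD lists had 97.7 and 92.4% for H3K18ac, against 77.3 and 78.9% in B cells, and 91.5 and 93.4% for H3K56ac, against 78.3 and 74.9%. The labels do not say whether the marks were measured on the same chromatin.

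**Figure D4:**
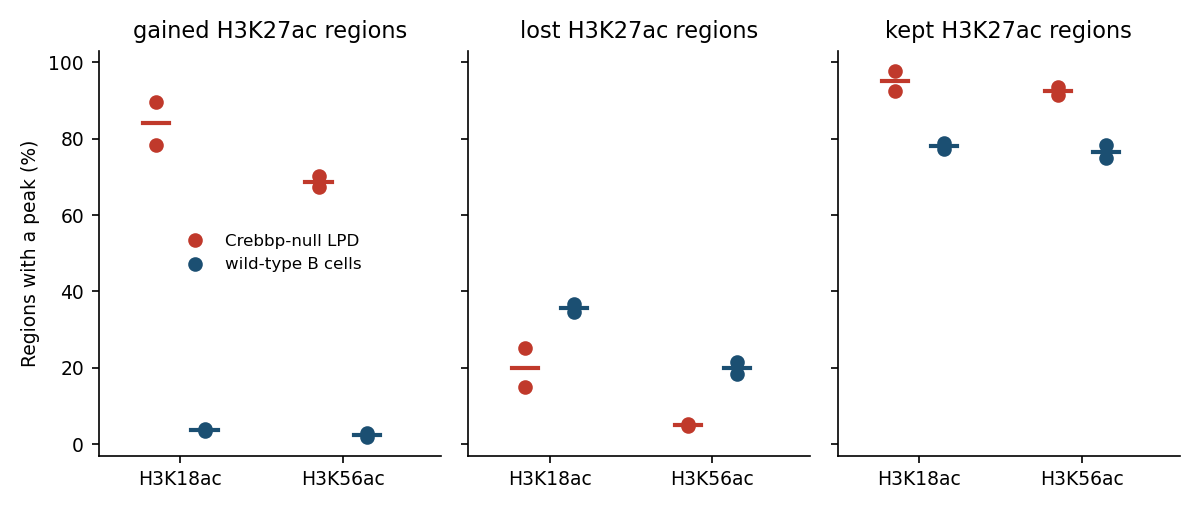
Percentage of gained, lost and kept H3K27ac regions (panels) that overlap an H3K18ac or H3K56ac peak, with 1 point per list and a bar at the mean of the 2 lists; LPD points are left of B cell points. Gained regions had H3K18ac in 78.4 to 89.7% in LPD against 3.35 to 4.0% in B cells, while at lost regions no list was above 36.6%.

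CBP itself was mapped in wild-type B cells, with 1000 peaks in a single list. Of these, 805 lay in kept regions, 57 in lost and 3 in gained ones, and 92 in no H3K27ac region. CBP overlapped 0.0648% of gained regions (95% exact binomial interval 0.0134 to 0.189%), 0.962% of lost regions (0.738 to 1.23%) and 5.11% of kept regions (4.76 to 5.47%). Gained regions have no H3K27ac peak in wild-type B cells by the rule, and CBP was mapped in those cells alone. The rule therefore bears on the low share at gained regions, which is no independent result. Kept regions were wider, and the part of width in this order was not tested. The 3 gained regions with CBP lay at or beside the starts of Mtfr2, Mtmr10 and Nuf2. Lost regions with CBP included those nearest Satb1, with 4036 and 3783 bp in the B cell lists, and a second region near Foxo1, with 2515 and 2672 bp there, and none in LPD.

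Lymphoid progenitors (Lin- IL7ra+), with 1 H3K27ac list per genotype and no replicate, had few of the called regions. Crebbp-null progenitors had a peak at 3.13% of gained regions and wild-type progenitors at 4.69%. At lost regions the shares were 6.42% in null and 12.0% in wild-type progenitors, and at kept regions 57.5 and 69.1%. A peak in wild-type progenitors alone was found at 387 lost regions, and in null progenitors alone at 28. The null list covered 6.32 Mb and the wild-type list 9.43 Mb, and the part of that difference in these shares was not tested.

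Chromosomes 15 and 17 stood apart. On chromosome 15, 20.6% of 2005 regions were gained and 9.08% lost, and on chromosome 17, 17.2% of 2152 were gained and 10.2% lost. On the other 18 chromosomes apart from Y, 4.89 to 13.0% were gained and 12.9 to 21.6% lost. These 2 chromosomes held 784 gained regions, 16.9% of all gained, but 10.3% of all regions. Chromosome 15 held 5.80 and 6.54% of the covered H3K27ac length in the LPD lists, against 4.39 and 4.36% in the B cell lists, a log2 ratio of shares of 0.50. Chromosome 17 held 6.20 and 6.85%, against 5.05 and 5.03%, a log2 ratio of 0.37. The other chromosomes ran from -0.29 to 0.15. The other marks had the same order: the log2 ratios were 0.65 and 0.45 for H3K18ac and 0.68 and 0.55 for H3K56ac on chromosomes 15 and 17, with other chromosomes from -0.37 to 0.09 and from -0.28 to 0.19. In progenitors, the null to wild-type ratio was -0.11 on chromosome 15 and -0.02 on 17. On these 2 chromosomes the exact permutation p between LPD and B cells was 0.33 in all 3 marks, the smallest that 2 lists against 2 can give. Most other chromosomes had the same p, among them chromosome 18, where the H3K27ac share was lower in LPD (log2 ratio -0.26). That p therefore does not set chromosomes 15 and 17 apart. Of the genes named above, Myc, Lrrk2, Asap1 and Tef lie on chromosome 15, and Satb1, Ccr6, Abca3, Abca17, Kcng3, Prkce, Rasgrp3, Rftn1, Zfp318, Lta, Psmb9 and Sik1 on chromosome 17. Without both chromosomes 3844 regions were gained and 6044 lost, and cell division genes stayed at 10 gained and 1 lost. The Y chromosome had 4 regions, at Kdm5d, Eif2s3y, Uty and Ddx3y, present in both B cell lists and in neither LPD list. They are counted among the lost regions. No list had a peak over Xist, and the labels give no sex.

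**Figure D5:**
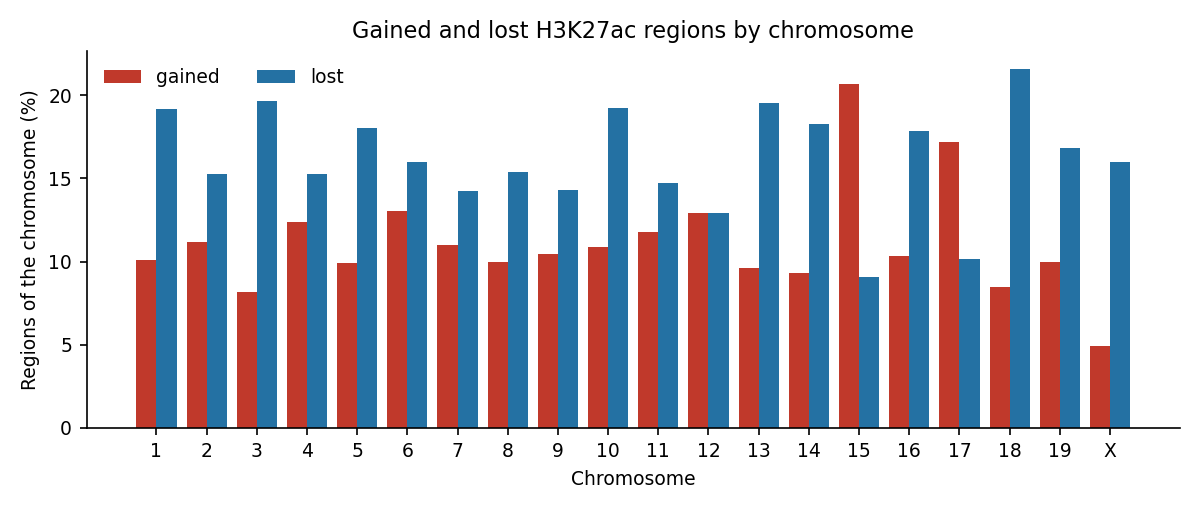
Percentage of the H3K27ac regions of each chromosome that were gained or lost in LPD (bars from 0, chromosome Y left out with 4 regions). Chromosome 15, with 20.6% gained and 9.08% lost, and chromosome 17, with 17.2% gained and 10.2% lost, have the highest gained percentages and the lowest lost percentages of the chromosomes plotted.

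Promoters of gained and of lost starts had a lower CpG ratio than those of kept starts. The 356 promoters of gained starts and the 356 of lost starts, none with a kept region in the window, had a median observed to expected CpG ratio of 0.646 and 0.685, against 0.813 in 8578 kept promoters. Both lay above the median of all promoters, 0.567, and of promoters with no region, 0.268. The octamer ATTTGCAT was found in 3.93% of gained, 4.21% of lost and 1.24% of kept promoters. The ETS letters CCGGAAGT were in 1.69, 3.37 and 10.8%, and the cyclic AMP response element TGACGTCA in 1.69, 1.69 and 3.84%. The NF-Y core CCAAT, common in all classes, was in 36.5, 39.0 and 38.2%, and the CHR core TTTGAA in 11.2, 14.3 and 11.4%. Over all promoters the octamer was in 1.66%, the ETS letters in 5.15%, TGACGTCA in 2.24%, CCAAT in 38.2% and TTTGAA in 16.0%. Each motif was searched on both strands, and a match is no proof of binding.

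Crebbp and Ep300 each had 1 region, kept in all 4 lists. Crebbp had 1.69 and 1.56 kb in the LPD lists, against 1.76 and 1.82 kb in the B cell lists, and Ep300, on chromosome 15, 2.17 and 2.12 kb in the LPD lists, against 1.598 and 1.82 kb in the B cell lists. The position of the deleted part of Crebbp is not in the labels, so these peaks do not check the deletion.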

How the data were processed

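H3K27ac and the other marks were profiled by chromatin immunoprecipitation with sequencing; 15 of the 30 samples have peak lists, and the 14 RNA-seq libraries and the input were not analysed here. The deposited files hold positions only (unit: other), 1 list per library, with no score. The authors' tools, named with no settings and per the submitters' processing notes, were Bowtie2 2.1.0 for alignment to mm10, with Picard, MACS2 2.0.10 for peaks and bedtools. Peaks of the 4 H3K27ac lists were merged into regions in Python 3.11.15 (pandas 2.3.3, NumPy 2.4.6; tests in SciPy 1.17.1; plots in Matplotlib 3.10.9); a list has a region when a peak overlaps it by at least 1 bp. Starts are the 21262 RefSeq entries (GRCm38.p6) of 17491 protein-coding genes, and no start on chromosome 18 was used. Log2 ratios per gene used a pseudocount of 0.2 kb. Lists held 952 entries, of which 948 matched a gene. Genes were named by a rule: longest called starts, far regions, members of lists, genes called both ways, kept starts, runs, and Crebbp with Ep300. Genes of the Y chromosome, of alternative starts and at CBP peaks were named after their values were seen. Regions, members and lists were chosen with earlier results of these data known. Comparisons of 2 lists against 2 used an exact permutation test. Intervals cover counting error only. Region calls were tested on simulated data. A few genes and 1 gene list are not reported here.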

Additional observations from a re-analysis of the deposited data

How the results depend on the processing

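With peaks of at least 500 bp, 2018 regions were gained, 3883 lost and 8438 kept. With peaks up to 1 kb apart merged, 2962 were gained and 3130 lost, with 296 gained and 270 lost starts. Start windows of 0 kb gave 170 gained and 167 lost starts, windows of 5 kb gave 925 and 1108, and leaving out starts with a kept region, an alternative chosen after seeing the data, gave 287 and 299. Leaving out each list in turn gave 4974 to 10315 gained and 6574 to 10023 lost regions, 539 to 931 gained and 584 to 1097 lost starts, and 14 to 30 of 50 gene lists with more gained members. The log2 ratio of peak number, -0.03, was 0.072 without LPD replicate 2, the highest value, and -0.14 without LPD replicate 1, the lowest with a list left out; with peaks of at least 500 bp it was -0.19. The log2 ratio of covered length in kept regions ran from -0.43 to -0.11 with a list left out. The difference in the share of regions with another mark, LPD minus B cells in percentage points, kept its sign throughout. When each list was left out it ran from 61.1 to 79.3 for H3K18ac and 41.0 to 65.7 for H3K56ac at gained regions, and from -15.0 to -7.51 and from -14.5 to -9.34 at lost regions. For H3K56ac it was 79.3 at gained, -18.9 at lost and 8.86 at kept regions with peaks of at least 500 bp (H3K18ac 8.69 at kept), and 72.3, -24.1 and 12.3 with merged peaks (H3K18ac -25.2 at lost), and 12.8 at kept regions with an overlap of 50% of the region. The share with a peak in either progenitor list, at gained, lost and kept regions in that order, was 11.2, 19.3 and 79.4% with the 50% overlap, 15.6, 27.4 and 83.5% with peaks of at least 500 bp, and 5.99, 13.9 and 71.3% with lists shortened to equal number. It was 18.2% at lost and 75.1% at kept regions with merged peaks, and 3.79 to 6.35, 9.89 to 14.0 and 62.8 to 68.1% with a list left out. The CBP share was 0.294, 2.14 and 5.58% with the 50% overlap, and 0.198, 2.37 and 7.36% with peaks of at least 500 bp. It was 1.34% at lost and 5.91% at kept regions with merged peaks, and 0.678 to 1.30% at lost and 4.72 to 4.93% at kept regions with a list left out. Of 700 gene list counts under 7 alternatives, 575 stayed within 1.5 times. The causes of these changes were not tested. With the replicate number as a replicate block, the log2 ratio of covered length in kept regions was -0.22 (exact paired permutation test, p = 0.5, the smallest that 2 pairs can give). The numbers are not said to pair the samples, and the differences between replicates of LPD and of B cells had a correlation of -0.0103 over 14745 kept regions; the block changed no call. With no read counts, how depth limits the lists is unknown.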

Other observations

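Lists not described above gave these values. Cytosolic ribosomal protein genes had 1 gained and 1 lost member of 20 with a region. The gained ones numbered 7 without LPD replicate 2, 3 without LPD replicate 1 and 4 with an overlap of 50% of the region. There were, among housekeeping control genes, 4 gained and none lost of 15, 1 gained with peaks of at least 500 bp, and 2 gained without chromosomes 15 and 17. Of the housekeeping genes, Tubb5 had 1.82 and 1.43 kb in the LPD lists, against 0.824 and 0.653 kb in the B cell lists. Of 20 non-blood control genes, 1 had a region, Gfap, with 0.552 and 0.429 kb in the LPD lists, against none in either B cell list. Nuclear receptor genes had 2 gained and 4 lost members of 16: Rarg, the retinoic acid receptor gamma gene on chromosome 15, had 7 gained regions, with 4.73 and 4.36 kb in the LPD lists, against 0.210 and 0 kb in the B cell lists, while Rora had 0.274 and 0 kb in the LPD lists, against 2.70 and 2.76 kb in the B cell lists. Of 15 circadian genes 4 had a gained and 1 a lost region (26.7 and 6.67%, against 17.2 and 18.7% of all genes). Without chromosomes 15 and 17, 2 circadian genes were gained and 1 lost. With peaks of at least 500 bp the order turned in the nuclear receptor and circadian lists. Without LPD replicate 2 the gained members numbered 4 among nuclear receptor and 8 among circadian genes, and without LPD replicate 1 the lost ones numbered 7 among nuclear receptor and 2 among circadian genes, as they did in the circadian list without either B cell replicate. Among 22 AP-1, NR4A and EGR genes 4 (18.2%) had a lost region, a share near the 18.7% of all genes, and they included the early response genes Nr4a1, Nr4a2 and Nr4a3. Nr4a1 had 5.64 and 5.03 kb in the LPD lists, against 12.1 and 12.2 kb in the B cell lists, and Nr4a3 1.82 and 1.62 kb in the LPD lists, against 3.27 and 3.37 kb in the B cell lists. Batf3, the member with a gained region, had 2.28 and 1.80 kb in the LPD lists, against none in either B cell list.

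Genes of sialic acid on glycans held members at both ends. St6gal1, which adds the sialic acid that CD22 binds, had 11 lost regions, with 3.17 and 0.916 kb in the LPD lists, against 24.2 and 24.2 kb in the B cell lists, and St6galnac6 had 2.30 and 2.21 kb in the LPD lists, against none in either B cell list. Of 18 members, with 9.61 regions per gene, 6 had a gained and 7 a lost region, an order that turned without LPD replicate 2. The erythroid markers with the most gained length were Slc4a1, with 2.54 and 2.07 kb in the LPD lists, against none in either B cell list, Ank1, with 2.23 and 0.848 kb in the LPD lists, against 0.205 and 0 kb in the B cell lists, and Tal1, with 2.22 and 0.759 kb in the LPD lists, against none in either B cell list. Arid1b, a chromatin remodeller gene, had 16 lost regions and 10.6 and 7.92 kb in the LPD lists, against 27.5 and 27.6 kb in the B cell lists. The stress kinase gene Eif2ak3 had 3.65 and 2.33 kb in the LPD lists, against 16.1 and 15.6 kb in the B cell lists.

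Along chromosome 15, the gained share varied between 10 Mb windows. It was 31.7% in the window from 10 to 20 Mb, 28.2% from 30 to 40 Mb, 18.1 to 26.0% in the windows from 50 Mb to the end, 11.9% from 0 to 10 Mb, 8.33% from 40 to 50 Mb, where there were 12 regions, and 7.14% from 20 to 30 Mb. Along chromosome 17 the window from 0 to 10 Mb had 9.80% gained and 20.9% lost, while the windows from 10 to 40 Mb had 17.2 to 27.5% and those from 40 to 90 Mb 12.8 to 18.3% gained.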
